A study of Mus musculus with 20 samples.

Results

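The extracellular matrix of white fat is cut and remodelled by a set of secreted or membrane-bound zinc proteases and is protected by their inhibitors. All protein-coding genes of the expression table named Mmp, Adamts or Timp with a number were taken as members of this set, which gave 45 of the table's 54304 genes: 22 matrix metalloproteinases, 19 ADAMTS proteases and 4 tissue inhibitors of metalloproteinases. Of these, 38 were above 0 in at least 5 of the 20 libraries and were tested (16 Mmp, 18 Adamts and 4 Timp genes). The collagenase Mmp1b, the tooth protease Mmp20, Mmp21 and Adamts13, which cuts von Willebrand factor, were listed at 0 in all 20 libraries. Mmp7 was above 0 in 4 libraries, Mmp13 in 3 and Mmp24 in 1, and these 3 genes were not tested. The members were picked by name alone.

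The libraries came from gonadal white fat of male mice aged 8 weeks, kept at 30 °C and given a diet with 60% of its energy as fat for 1 month. Stromal cells with PDGFRB on their surface, freed of CD45-positive blood cells and CD31-positive endothelium, were split by flow cytometry. Fibro-inflammatory progenitors (FIPs) were LY6C-positive, and adipogenic precursor cells (APCs) were negative for both LY6C and CD9. Each population was taken from control mice and from Mural-Zfp423TG mice, a line named for Zfp423, a transcription factor of the fat lineage, in mural cells, and every group (control FIP, control APC, transgenic FIP, transgenic APC) had 5 libraries. A library held pooled RNA of 2 mice, and 10 mice were used per genotype, so within a genotype the pools of both populations have mice in common. Which pools share a mouse is not stated. The controls are titled wt, and the sources used here do not give their strain or the promoter behind the transgene.

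Values are log2 CPM (counts per megaread, that is, relative to library size), and a gene at 1 CPM or less is listed as 0. Read depth is an estimate from the steps between low values and came to 6.6 to 8.48 megareads per library, and 15972 to 17282 genes exceeded 1 CPM. All 5 markers of mesenchymal cells (Pdgfrb, Pdgfra, Col1a1, Dcn and Lum) were above 0 in every library, summing to 3250 to 4000 CPM. Zfp423 mRNA did not tell the genotypes apart: it was 5.47 ± 0.12 log2 CPM (mean ± SD, n = 5) in control FIPs and 5.53 ± 0.04 in transgenic ones, 4.97 ± 0.17 in control APCs and 4.70 ± 0.27 in transgenic ones (limma, adjusted p = 0.933 and 0.108). The mice are therefore called labelled transgenic below. Replicate 1 of the control APCs and replicate 1 of the APCs labelled transgenic were the libraries least like their own groups. Across the tested genes, their median correlation was 0.9853 and 0.9879 with their own group, against 0.9874 and 0.9899 with the APCs of the other genotype. Replicate 2 of the control APCs was also closer to the other genotype (0.9908) than to its own group (0.9891), and the remaining APC libraries were closer to their own. Results between genotypes are given with and without the 2 libraries numbered 1, while replicate 2 of the control APCs was kept. Leaving out libraries picked for their likeness to the other genotype tends to widen the genotype differences in APCs. Calls gained in that way are no added evidence.

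Matrix metalloproteinases are made as inactive proenzymes with a zinc-binding catalytic domain, and they are grouped by what they cut: collagenases open fibrillar collagen, gelatinases degrade the opened chains and basement membrane, stromelysins act on proteoglycans and activate other proenzymes, and membrane-type enzymes work at the cell surface. ADAMTS proteases carry thrombospondin repeats that hold them in the matrix. Some of them cut the large proteoglycans aggrecan and versican, others remove the amino-terminal propeptide of fibrillar procollagen, and several are orphans with few known substrates. TIMPs block these enzymes with overlapping preferences. In fat, stromal progenitors are a source of such enzymes, and matrix turnover accompanies the growth of the depot on a rich diet.

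Summed over all members, the set took up a similar share of the transcripts in the 4 groups. Mmp genes together reached 1574 ± 37 CPM (mean ± SD, n = 5) in control APCs, 1589 ± 75 in APCs labelled transgenic, 1647 ± 64 in control FIPs and 1607 ± 63 in FIPs labelled transgenic. Adamts genes reached 4783 ± 150, 5018 ± 219, 4829 ± 114 and 4750 ± 87 CPM in the same order. Timp genes reached 1096 ± 51, 1135 ± 54, 1202 ± 68 and 1131 ± 27 CPM. These sums are carried by a few abundant genes, so they say little of the others.

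Divided by exon length, the most abundant member in control FIPs was Timp2, at 199 CPM per kilobase. The gelatinase Mmp2 followed at 164, Timp1 at 158, Adamts4 at 136, Adamts1 at 130, Adamts2 at 103 and the membrane-type Mmp14 at 75.0 CPM per kilobase. Timp2 and Mmp2 were the first and second in all 4 groups. Adamts4 was the next in control APCs at 150 CPM per kilobase, and its libraries (7.08 to 7.31 on the log2 scale per kilobase) met those of Mmp2 (7.30 to 7.44), so these neighbours in the order did not differ beyond their spread. Timp1 was the fifth in both APC groups (111 CPM per kilobase in controls) and the third in both FIP groups, and Adamts4 and Adamts1 stood 1 place lower in FIPs than in APCs. Further down the order in FIPs, Adamts16 held place 18 with 24.2 CPM per kilobase, against place 31 with 0.559 in control APCs.

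The first comparison was FIPs against APCs in control mice, which describes how the 2 progenitor populations differ in matrix proteases. Of the 38 tested members, 25 passed (limma, Benjamini-Hochberg adjusted p under 0.05 over all 17435 genes tested), 15 higher and 10 lower in FIPs. This is 65.8% of the members, where 47.5% of all tested genes passed, 19.6% higher and 27.9% lower. The groups did not overlap for 12 members in the upward and 7 in the downward direction, while 31.4% of all tested genes had non-overlapping groups. The median difference of the members was −0.02 log2 units (−0.06 over all genes), and the median absolute difference was 0.43 (0.22 over all genes). Of the tested members, 5 met the filter on low values through 1 population alone: Mmp8, Mmp10 and Adamts18 through FIPs, Mmp25 and Adamts20 through APCs. Those that entered through FIPs had to be higher there, so their calls are no evidence of a difference, and without these 5 the count was 22 of 33 (12 higher, 10 lower). The share over all genes was not computed without genes of that kind, so this count has no matching background. By family, 5 Mmp genes were higher and 5 lower, 8 Adamts genes were higher and 4 lower, and of the Timp genes 2 were higher and 1 lower. The higher Mmp genes include Mmp8 and Mmp10 and the higher Adamts genes include Adamts18, which entered through FIPs. Mmp8 and Adamts18 are also among the 12 members without overlap in the upward direction.

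**Figure D1:**
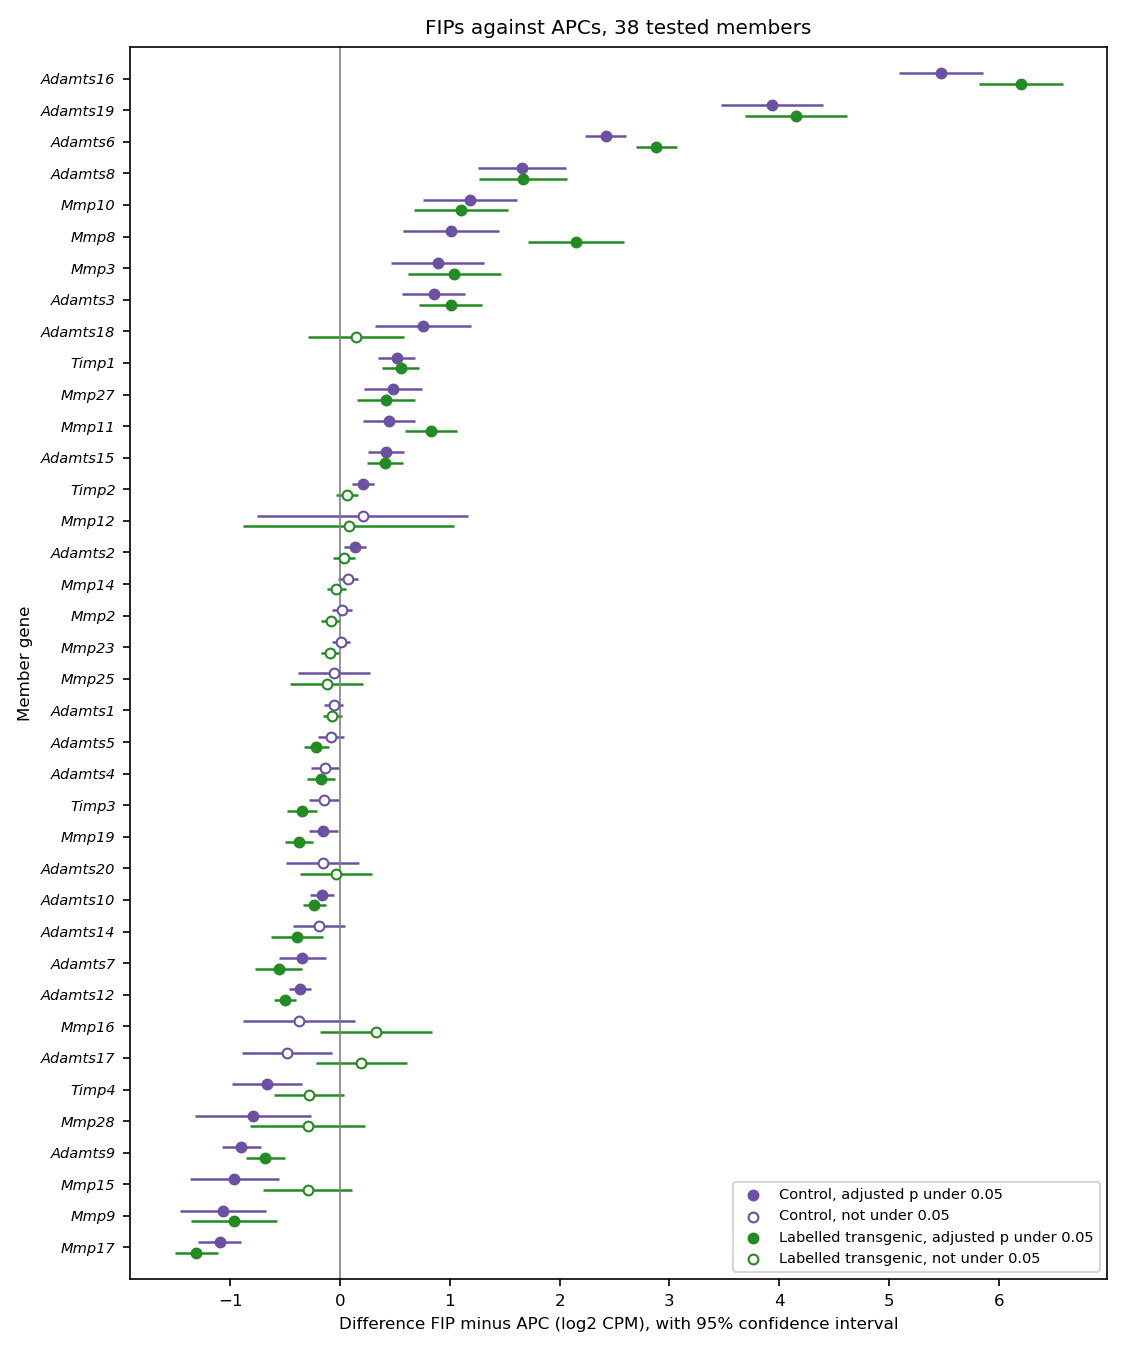
Difference between FIPs and APCs for each of the 38 tested members, on the horizontal axis in log2 CPM with the 95% confidence interval; purple is control and green is labelled transgenic, with filled points where the limma adjusted p was under 0.05. Adamts16, Adamts19 and Adamts6 stand furthest to the right and Mmp17 and Mmp9 furthest to the left in control mice; for Mmp8 in both genotypes and Adamts18 in controls the APC libraries were all listed at 0, so the plotted distance depends on that 0 and is no fold change, and these genes and Mmp10 met the filter through FIPs alone.

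The largest differences belonged to orphan ADAMTS proteases. Adamts16 (chr13:70727802-70841811, GRCm38, minus strand) is a secreted protease with few known substrates, fibronectin among them. In control FIPs its 5 libraries read 7.17, 7.37, 7.37, 7.39 and 7.54 log2 CPM, and in control APCs 1.24, 2.17, 2.21, 1.89 and 1.97. Every FIP library lay far above every APC library. The difference was 5.47 log2 units (SE 0.18; 44.4-fold; limma adjusted p = 2.65e-15; exact permutation p = 0.00794, the smallest that 5 against 5 libraries allow). In mice labelled transgenic the FIP libraries read 7.34, 7.31, 7.06, 6.78 and 6.83 and the APC libraries 1.14, 0.50, 1.40, 0.84 and 0.45, a difference of 6.20 (SE 0.18; 73.4-fold; adjusted p = 3.69e-16). The gap between the populations was again far larger than the spread in either.

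Adamts19, an orphan protease known from heart valve development, read 5.28, 4.89, 4.85, 5.29 and 4.90 log2 CPM in control FIPs. Control APCs read 1.32, 1.95, 0.91, 0.49 and 0.87. The groups were widely apart although the APC libraries spread over more than 1 log2 unit near the floor. The difference was 3.93 (SE 0.22; 15.3-fold; limma adjusted p = 9.03e-12) in controls and 4.15 (17.8-fold; adjusted p = 3.4e-12) in mice labelled transgenic. Adamts6 (chr13:104287835-104496695, plus strand), which lies on the same chromosome as Adamts16 but far from it and whose protein acts on microfibrils, read 5.82, 5.82, 5.82, 6.11 and 6.33 in control FIPs. In control APCs it read 3.64, 3.47, 3.55, 3.66 and 3.49. The control APC libraries had an SD of 0.09 (n = 5), and the difference was 2.42 (SE 0.09; 5.34-fold; adjusted p = 1.61e-14) in controls and 2.88 (7.37-fold; adjusted p = 1.04e-15) in mice labelled transgenic.

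**Figure D2:**
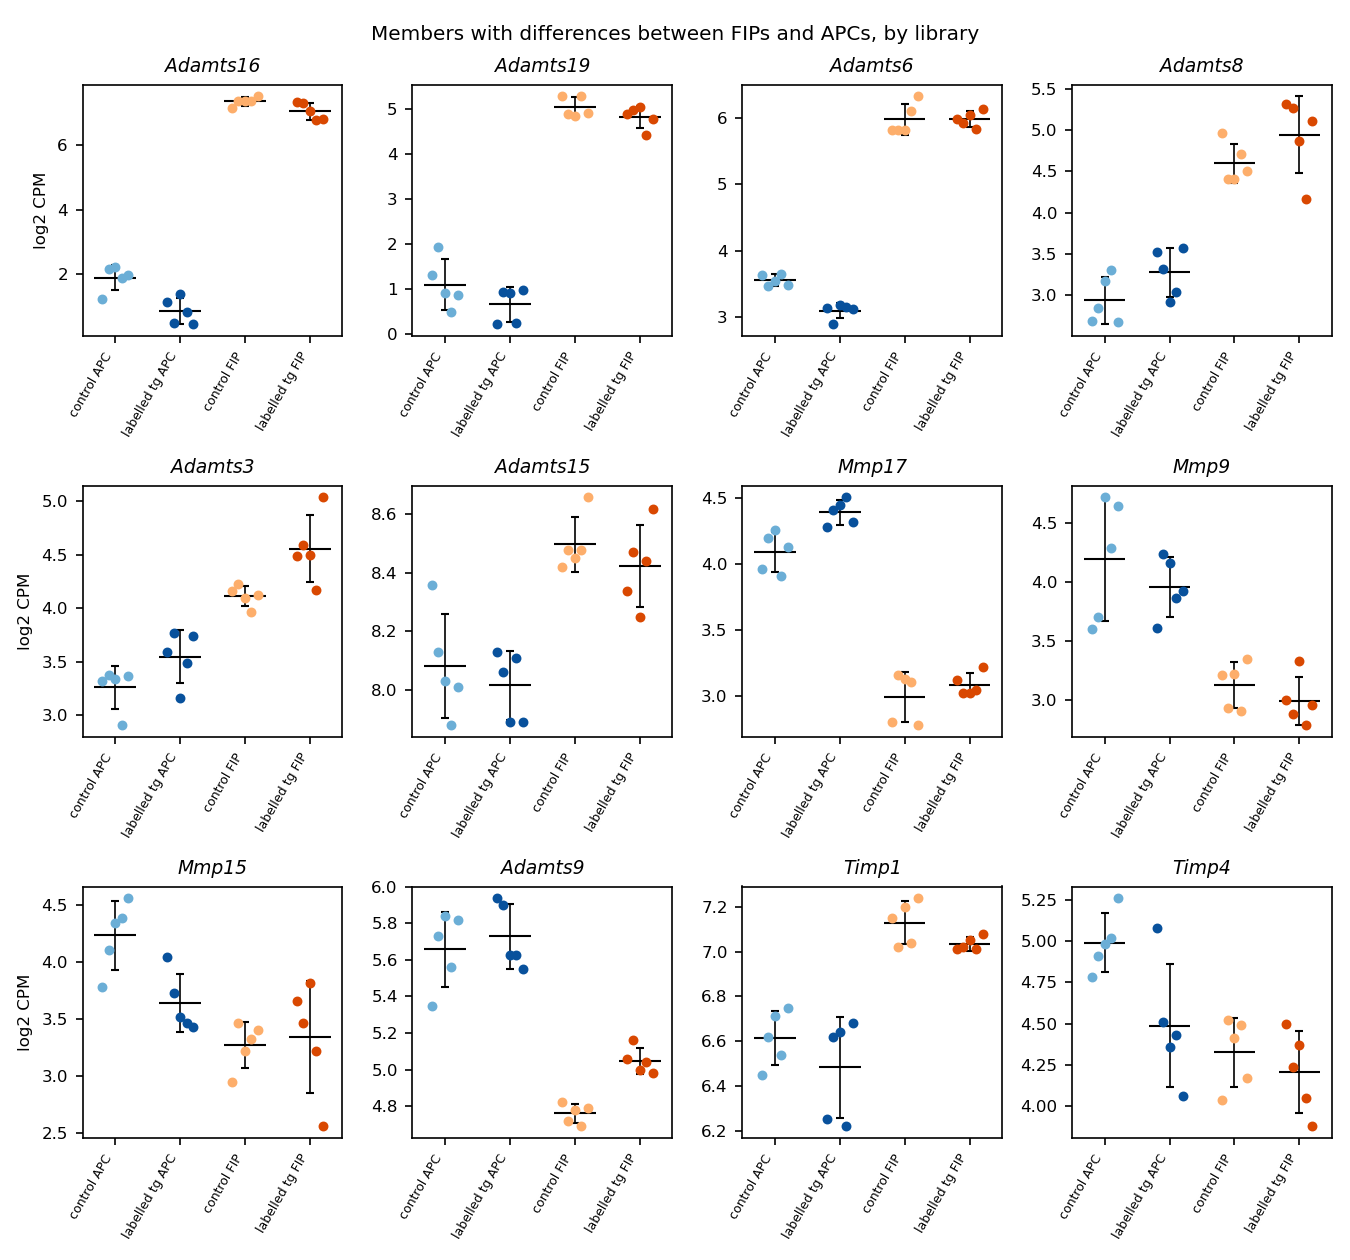
Log2 CPM of 12 members in each of the 20 libraries; each panel is a gene with its own vertical axis, points are libraries, and bars give the mean ± SD of 5 libraries per group. In the panels of Adamts16, Adamts19, Adamts6, Adamts8 and Adamts3 all FIP points lie above all APC points, and in those of Mmp17, Mmp9 and Adamts9 all lie below.

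The proteoglycan-cutting ADAMTS enzymes split in direction. Adamts8, which can cut aggrecan, read 4.96, 4.41, 4.41, 4.71 and 4.51 log2 CPM in control FIPs and 2.69, 2.85, 3.17, 3.31 and 2.68 in control APCs, a difference of 1.66 (SE 0.19; 3.16-fold; limma adjusted p = 5.57e-07). Its neighbour Adamts15, a versicanase that lies 20.1 kb away on chromosome 9 in the opposite orientation, was also higher, with 8.42 to 8.66 in control FIPs and 7.88 to 8.36 in control APCs (difference 0.42, adjusted p = 0.000223). Both were higher in mice labelled transgenic as well, by 1.67 and 0.41. Adamts9, the other main versicanase of stromal cells, went the other way. It read 4.82, 4.72, 4.78, 4.69 and 4.79 in control FIPs and 5.35, 5.73, 5.84, 5.56 and 5.82 in control APCs, with no overlap. It was lower in FIPs by 1.87-fold in controls (difference −0.90, SE 0.09, adjusted p = 3.2e-08) and by 1.60-fold in mice labelled transgenic (−0.68, adjusted p = 1.41e-06).

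The abundant aggrecanases Adamts1, Adamts4 and Adamts5 differed little between the populations. Adamts1 stood at 9.43 ± 0.08 log2 CPM in control FIPs and 9.48 ± 0.06 in control APCs (n = 5 each), and its difference of −0.06 had a 95% confidence interval of −0.14 to 0.03 (limma adjusted p = 0.29). Its tandem neighbour Adamts5, 53.1 kb away on chromosome 16, stood at 9.56 ± 0.06 and 9.65 ± 0.14 (difference −0.08, interval −0.20 to 0.03, adjusted p = 0.237). Adamts4 stood at 9.36 ± 0.09 and 9.49 ± 0.10 (difference −0.14, adjusted p = 0.074). In mice labelled transgenic Adamts5 and Adamts4 passed as lower in FIPs, with differences of −0.21 (adjusted p = 0.00438) and −0.17 (adjusted p = 0.0286). For Adamts4 that call was lost without replicate 2 or 5 of the APCs, or replicate 1 or 5 of the FIPs, labelled transgenic.

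The 3 procollagen amino-peptidases moved differently. Adamts3, which also activates the lymphatic growth factor VEGFC, read 4.16, 4.23, 4.10, 3.97 and 4.12 in control FIPs and 3.32, 3.38, 3.34, 2.91 and 3.37 in control APCs. Even the highest APC library lay below the lowest FIP library, and the difference was 0.85 (SE 0.14; 1.80-fold; limma adjusted p = 3.91e-05) in controls and 1.01 (adjusted p = 4.39e-06) in mice labelled transgenic. Adamts2, the most abundant of them per kilobase, ranged from 9.83 to 10.00 in control FIPs and 9.62 to 9.86 in control APCs, overlapping groups with a difference of 0.14 (adjusted p = 0.019) that was lost without replicate 1 of the APCs or replicate 3 of the FIPs. Adamts14 ranged from 7.55 to 7.74 and from 7.45 to 8.09 (difference −0.19, adjusted p = 0.18), and in mice labelled transgenic it passed as lower in FIPs (−0.39, adjusted p = 0.00895).

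Among other ADAMTS genes, Adamts12 and Adamts7, a related pair that cut cartilage oligomeric matrix protein, were lower in FIPs in both genotypes. Adamts12 ranged from 9.08 to 9.26 in control FIPs and from 9.37 to 9.63 in control APCs (difference −0.36, limma adjusted p = 2.8e-06), and its difference in mice labelled transgenic was −0.50. Adamts7 ranged from 5.16 to 5.61 and from 5.40 to 5.90 (difference −0.34, adjusted p = 0.00926), and the second genotype gave −0.56. Adamts10, a microfibril protease related to Adamts6, was lower by a small amount (−0.16 in controls, adjusted p = 0.0132, and −0.23 in mice labelled transgenic). That control call was lost when libraries were centred on their medians or shifted by a trimmed mean of M-values. Adamts18 was listed at 0 in all 5 control APC libraries and read 1.27, 0.66, 0.05, 0.28 and 1.50 in control FIPs. In mice labelled transgenic 3 of 5 FIP libraries (0.52, 0.03 and 0.50) and 1 APC library (0.33) were above 0. Adamts17 and Adamts20 stayed at or below 1.08 log2 CPM in all libraries and passed in neither genotype.

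Among matrix metalloproteinases, 4 genes that are consecutive among the members of the stromelysin and collagenase cluster on chromosome 9 had higher mean levels in FIPs. The cluster spans chr9:7272514-7699585 (GRCm38, 427.1 kb) and holds 9 members in the order Mmp13, Mmp12, Mmp1b, Mmp3, Mmp10, Mmp8, Mmp27, Mmp20 and Mmp7. Mmp3, Mmp10, Mmp8 and Mmp27 follow each other in this order of members, and genes that are not members were not placed. Mmp3 and Mmp27 passed in both genotypes, while Mmp10 and Mmp8 were at or near 0 in APCs and are given as values with no test. To their left Mmp13 and Mmp1b, and to their right Mmp20 and Mmp7, were at or near 0, and Mmp12 was expressed but did not pass.

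Several genes of the cluster are known targets of AP-1, a stress- and growth-responsive transcription factor. The bases before the start sites are therefore shown for the 4 consecutive members and for the nearly silent Mmp13. The sequences are RefSeq's (GRCm38.p6, plus strand), 150 bases ending just before the annotated start, 5′ to 3′. Capitals mark matches to TGANTCA, the AP-1 type motif, and to TATAAA.
Mmp13, chr9:7272364-7272513: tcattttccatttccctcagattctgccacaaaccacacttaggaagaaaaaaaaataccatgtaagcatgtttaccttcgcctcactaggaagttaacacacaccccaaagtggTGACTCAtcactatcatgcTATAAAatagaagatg
Mmp3, chr9:7445672-7445821: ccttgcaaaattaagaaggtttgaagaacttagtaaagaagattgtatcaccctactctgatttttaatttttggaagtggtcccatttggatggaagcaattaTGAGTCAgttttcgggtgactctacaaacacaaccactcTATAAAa
Mmp10, chr9:7502192-7502341: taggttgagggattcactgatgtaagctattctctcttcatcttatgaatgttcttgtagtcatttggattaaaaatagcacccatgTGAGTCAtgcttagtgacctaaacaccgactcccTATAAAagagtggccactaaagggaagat
Mmp8, chr9:7558279-7558428: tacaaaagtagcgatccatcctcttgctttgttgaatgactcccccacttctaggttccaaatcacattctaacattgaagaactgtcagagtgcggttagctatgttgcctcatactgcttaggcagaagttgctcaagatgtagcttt
Mmp27, chr9:7571246-7571395: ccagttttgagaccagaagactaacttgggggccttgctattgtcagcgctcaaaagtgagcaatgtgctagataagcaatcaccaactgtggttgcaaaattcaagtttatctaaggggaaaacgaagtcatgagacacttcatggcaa
In Mmp13, Mmp3 and Mmp10 the first base of TGANTCA lies 35, 46 and 63 bases before the start and that of TATAAA 16, 7 and 29 bases before it. Mmp8 and Mmp27 hold neither on the strand shown. Both motifs were searched on both strands of windows of 300 bases (250 before and 50 after the start), which were at hand for 31 of the 45 members (34 windows). TGANTCA occurred in 7 of 11 windows of the cluster and in 0 of 23 windows of other members, against 7.81% of all 32851 promoter windows. TATAAA occurred in 8 of the 11 and 2 of the 23, against 13.62% of all windows, with Mmp8 matching on the reverse strand, outside the stretch shown. Both occurred together in 7 of the 11, against 1.54% of all windows. Both were held by Mmp13, Mmp1b, Mmp20 and Mmp7, at or near 0, and by Mmp3, Mmp12 and the low Mmp10. Mmp12 and Mmp7 did not hold them in every window. The part of the motifs in the expression of the cluster was not tested.

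Mmp3, stromelysin, was the most abundant gene of the cluster per length in control FIPs, at 69.3 CPM per kilobase. It read 6.74, 6.89, 6.97, 6.96 and 7.22 log2 CPM in control FIPs and 5.41, 5.70, 6.35, 6.07 and 6.80 in control APCs. APC replicate 5 reached into the FIP range, while the other 4 lay below it. The difference was 0.89 (SE 0.20; 1.85-fold; limma adjusted p = 0.00127), and in mice labelled transgenic it was 1.04 (adjusted p = 0.000291), there without overlap (6.72 to 7.13 against 5.48 to 6.48). Mmp10, its close relative, read 1.49, 1.28, 1.10, 1.48 and 1.83 in control FIPs, whereas 3 of 5 control APC libraries were listed at 0 and the others read 0.12 and 1.15. It ranged from 0.97 to 1.58 in FIPs labelled transgenic and from 0 to 0.62 in the matching APCs.

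Mmp8, the collagenase first known from neutrophils, was listed at 0 in all 10 APC libraries. Control FIPs read 1.10, 1.16, 0.24, 1.13 and 1.43, and FIPs labelled transgenic 1.74, 2.06, 1.62, 2.42 and 2.91. No fold can be given against groups at 0. Mmp27, a poorly studied member that starts 2.9 kb past the end of Mmp8, ranged from 3.02 to 3.28 in control FIPs and from 2.42 to 2.86 in control APCs (difference 0.48, limma adjusted p = 0.00384). Its difference in mice labelled transgenic was 0.42 (adjusted p = 0.0106), and this call was lost with quantile normalization.

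**Figure D3:**
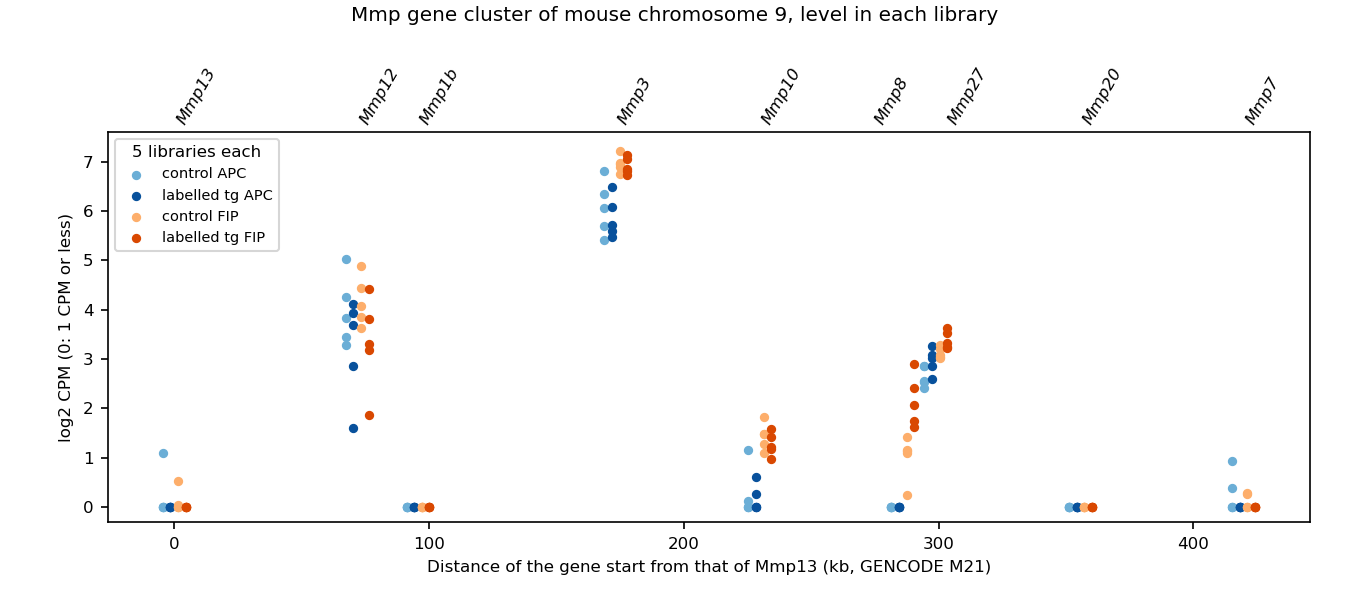
Log2 CPM of the 9 members of the Mmp cluster on chromosome 9 in each library, placed along the horizontal axis by the distance of the gene from the first one in kb; points are libraries, offset slightly by group, and 0 means 1 CPM or less. FIP points lie above most or all APC points at the consecutive members Mmp3, Mmp10, Mmp8 and Mmp27, while Mmp12 overlaps in all groups and the remaining 4 genes are at or near 0.

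Mmp12, macrophage elastase, varied more between libraries than between populations. It read 3.85, 4.45, 4.88, 4.07 and 3.62 in control FIPs and 3.45, 4.25, 5.02, 3.84 and 3.28 in control APCs, and its difference of 0.21 had a 95% confidence interval of −0.76 to 1.17 (limma adjusted p = 0.744). Its lowest values, 1.87 and 1.60, were in replicate 5 of the FIPs and of the APCs labelled transgenic, and these 2 libraries also had the lowest sums of 12 macrophage markers in their groups, 157 and 195 CPM. In controls the lowest Mmp12 and the lowest macrophage sum fell in different libraries (replicate 5 for Mmp12 and replicate 1, at 235 and 306 CPM, for the markers). The part of macrophages in Mmp12 was not tested.

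Outside the cluster, Mmp11, a stromelysin activated inside the cell by furin, was higher in FIPs. It ranged from 6.96 to 7.15 in control FIPs and from 6.43 to 6.86 in control APCs, a difference of 0.45 (SE 0.12; 1.36-fold; limma adjusted p = 0.0032), and in mice labelled transgenic the difference was 0.83 (adjusted p = 5.23e-06). The other metalloproteinases that passed were lower in FIPs. Mmp17, a membrane-type enzyme held by a lipid anchor, read 2.80, 3.16, 3.13, 3.11 and 2.78 in control FIPs and 3.96, 4.20, 4.26, 3.91 and 4.13 in control APCs. Its groups did not overlap, and FIPs were 2.14-fold lower in controls (difference −1.10, SE 0.10, adjusted p = 7.98e-09) and 2.48-fold lower in mice labelled transgenic (−1.31, adjusted p = 4.59e-10).

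Mmp9, the inducible gelatinase, read 3.21, 2.93, 3.22, 2.91 and 3.35 in control FIPs and 3.60, 3.70, 4.72, 4.29 and 4.64 in control APCs. The APC libraries spread over more than 1 log2 unit but all lay above the FIP libraries. FIPs were 2.09-fold lower in controls (difference −1.07, SE 0.19, limma adjusted p = 0.000111) and 1.95-fold lower in mice labelled transgenic (−0.97, adjusted p = 0.000286). The other gelatinase, Mmp2, did not differ beyond its spread. It read 9.10, 9.10, 9.22, 9.03 and 9.09 in control FIPs and 9.19, 9.11, 9.05, 9.06 and 9.05 in control APCs, and the 95% confidence interval of the difference was −0.07 to 0.11. Mmp14, the membrane-type enzyme that activates pro-Mmp2 with Timp2 as a bridge, stood at 8.80 ± 0.06 and 8.73 ± 0.02 (difference 0.07, interval −0.01 to 0.16, adjusted p = 0.158). Mmp23, another membrane enzyme, stood at 7.12 ± 0.07 and 7.11 ± 0.07 (difference 0.01, interval −0.08 to 0.09).

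Mmp15 and Mmp28 passed as lower in FIPs in controls and not in mice labelled transgenic. Mmp15, a membrane-type enzyme, read 2.95, 3.46, 3.22, 3.32 and 3.40 in control FIPs and 3.78, 4.10, 4.34, 4.38 and 4.56 in control APCs (difference −0.96, limma adjusted p = 0.000396). In mice labelled transgenic the difference was −0.29 (adjusted p = 0.239). Mmp28, epilysin, ranged from 2.50 to 2.97 and from 2.88 to 4.12 (difference −0.79, adjusted p = 0.014), and gave −0.29 (adjusted p = 0.376) in the other genotype. Mmp19 passed narrowly in controls (−0.15, adjusted p = 0.0497) and lost that call in 15 of 20 fits with 1 library left out, but ranged from 7.19 to 7.44 in FIPs and from 7.65 to 7.78 in APCs labelled transgenic (−0.38, adjusted p = 3.89e-05). Its exons overlap a gene on the other strand over 22.33% of their length, and the sources used here do not say whether reads were counted by strand, which also touches Timp3 (21.28%), Mmp28 (12.03%) and Adamts8 (10.6%).

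Of the inhibitors, Timp1, which is inducible and encoded on the X chromosome, was higher in FIPs. It read 7.15, 7.02, 7.20, 7.04 and 7.24 in control FIPs and 6.45, 6.62, 6.71, 6.54 and 6.75 in control APCs, without overlap. The difference was 0.52 (SE 0.08; 1.43-fold; limma adjusted p = 2.62e-05), and it was 0.55 (adjusted p = 1.01e-05) in mice labelled transgenic. Timp2 ranged from 9.51 to 9.74 in control FIPs and from 9.34 to 9.49 in control APCs, a difference of 0.21 (adjusted p = 0.00106), and did not pass in the other genotype (0.06, adjusted p = 0.312). Timp3, the matrix-bound inhibitor that also blocks ADAMTS enzymes, did not pass in controls (−0.15, adjusted p = 0.0697) and was lower in FIPs labelled transgenic, at 7.95 to 8.09 against 8.22 to 8.48 (−0.34, adjusted p = 0.000218). Timp4, an inhibitor abundant in fat and heart, read 4.04, 4.52, 4.41, 4.49 and 4.17 in control FIPs and 4.78, 4.91, 4.98, 5.02 and 5.26 in control APCs. Its groups did not overlap, and FIPs were 1.58-fold lower (−0.66, adjusted p = 0.0013), whereas in mice labelled transgenic the difference was −0.28 (adjusted p = 0.151).

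The second comparison, FIPs against APCs in mice labelled transgenic, gave 23 passing members of 38, 12 higher and 11 lower (60.5%; background 41.7%, with 22.7% higher and 19% lower). Without the 5 genes that met the filter through 1 population, the count was 21 of 33 (10 higher, 11 lower), again with no matching background. Non-overlapping groups were found for 11 members upward and 8 downward (29% of all tested genes). The 11 include Mmp8 and Mmp10, which entered through FIPs. With libraries of its own, it called 12 members higher and 7 lower that the control comparison had called in the same direction, 0 in opposite directions, 6 that passed in controls alone and 4 in mice labelled transgenic alone, and 9 passed in neither. The 12 include Mmp8 and Mmp10, which had to be higher in FIPs. The share of all genes called alike in both genotypes was not computed, so these counts have no background. Those in controls alone were Adamts18, Timp2, Adamts2, Timp4, Mmp28 and Mmp15, and those in the other genotype alone Adamts5, Adamts4, Timp3 and Adamts14. With the replicate number as a block, Timp3 passed in controls too (−0.15, adjusted p = 0.011) and Timp4 in mice labelled transgenic (−0.28, adjusted p = 0.033). Whether the differences themselves changed with genotype is the interaction given below. With both APC libraries numbered 1 left out, the 2 comparisons gave 26 (background 48.1%) and 24 (background 41.9%) members.

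Markers of several other cells moved with this comparison. In controls all 10 mural markers were lower in FIPs (summed level 459 to 497 CPM, against 842 to 1170 in APCs), as were 7 of 7 adipocyte, 5 of 5 erythroid, 9 of 10 endothelial, 7 of 8 mesothelial and 2 of 12 macrophage markers. Over all tested genes 27.9% were lower. The remaining endothelial marker was higher. In mice labelled transgenic, 6 of 10 mural (474 to 603 against 790 to 923 CPM), 4 of 7 adipocyte, 3 of 5 erythroid, 0 of 10 endothelial, 2 of 8 mesothelial and 1 of 12 macrophage markers were lower. The background was 19%, and 1 endothelial and 1 mesothelial marker were higher. Macrophage markers were thus lower no more often than genes in general. Their part in the differences of the members was not tested. In pooled sorted cells, fewer cells of a type and less RNA per cell cannot be told apart. All 6 markers of interstitial progenitors, among them Dpp4 and Pi16, were higher in FIPs in both genotypes, at 1820 to 2000 against 326 to 353 CPM in controls.

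The third comparison asked which members differed with the Mural-Zfp423TG label in FIPs. Of the 38 members, 1 passed: Mmp8, which was higher in FIPs labelled transgenic (2.63% of members; background 0.373%, with 0.241% higher and 0.132% lower, so 65 genes of 17435). Its 5 libraries labelled transgenic, at 1.62 to 2.91 log2 CPM, all lay above the 5 control FIP libraries at 0.24 to 1.43. The difference was 1.14 (SE 0.21; 2.20-fold; limma adjusted p = 0.0233; exact permutation p = 0.00794). This SE pools the spread of all 4 groups, and Mmp8 was at 0 in every APC library (SD 0). The FIP groups had SDs of 0.53 with the label and 0.45 in controls. The SE and the adjusted p therefore do not measure the spread between FIP pools alone. The level is low, at most 2.91 log2 CPM, and the call was lost without replicate 4 of either FIP group, with log2(CPM + 0.1), and when only the FIP libraries were fitted (adjusted p up to 0.203 over these settings). In that last fit Adamts9 passed in its place (0.29, adjusted p = 0.0389).

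Markers of neutrophils, a known source of Mmp8, were read in the same libraries. Of 10 neutrophil markers, 8 were at 0 in all 5 control FIP libraries and 9 in all 5 labelled transgenic, S100a8, S100a9, Ly6g, Camp, Ltf, Ngp, Retnlg and Elane in both. Their sum was 0 to 2.3 CPM in the control group and 0 to 1.72 CPM with the label. It was higher, 2.43 to 5.12 CPM, in the APC libraries, where Mmp8 was at 0. The cells that Mmp8 came from were not tested.

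The FIP groups did not overlap for 3 members, Mmp8, Adamts9 and Mmp11, all higher in libraries labelled transgenic (2.89% of all tested genes had non-overlapping groups). Adamts9 ranged from 4.98 to 5.16 log2 CPM against 4.69 to 4.82 in controls (difference 0.29, limma adjusted p = 0.174), and Mmp11 from 7.16 to 7.68 against 6.96 to 7.15 (0.28, adjusted p = 0.378). In all, 8 members had an unadjusted p under 0.05, a count for which no share over all genes was computed. The median difference over the members was −0.04 (0.01 over all genes). The interval for Mmp2 was −0.15 to 0.03, for Mmp14 −0.17 to 0.00, for Timp1 −0.26 to 0.07 and for Adamts16 −0.69 to 0.08, which bounds the differences these libraries allow. With both APC libraries numbered 1 left out, which changes only the shared spread here, 2 members passed, Mmp8 and Adamts9 (background 0.723%).

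**Figure D4:**
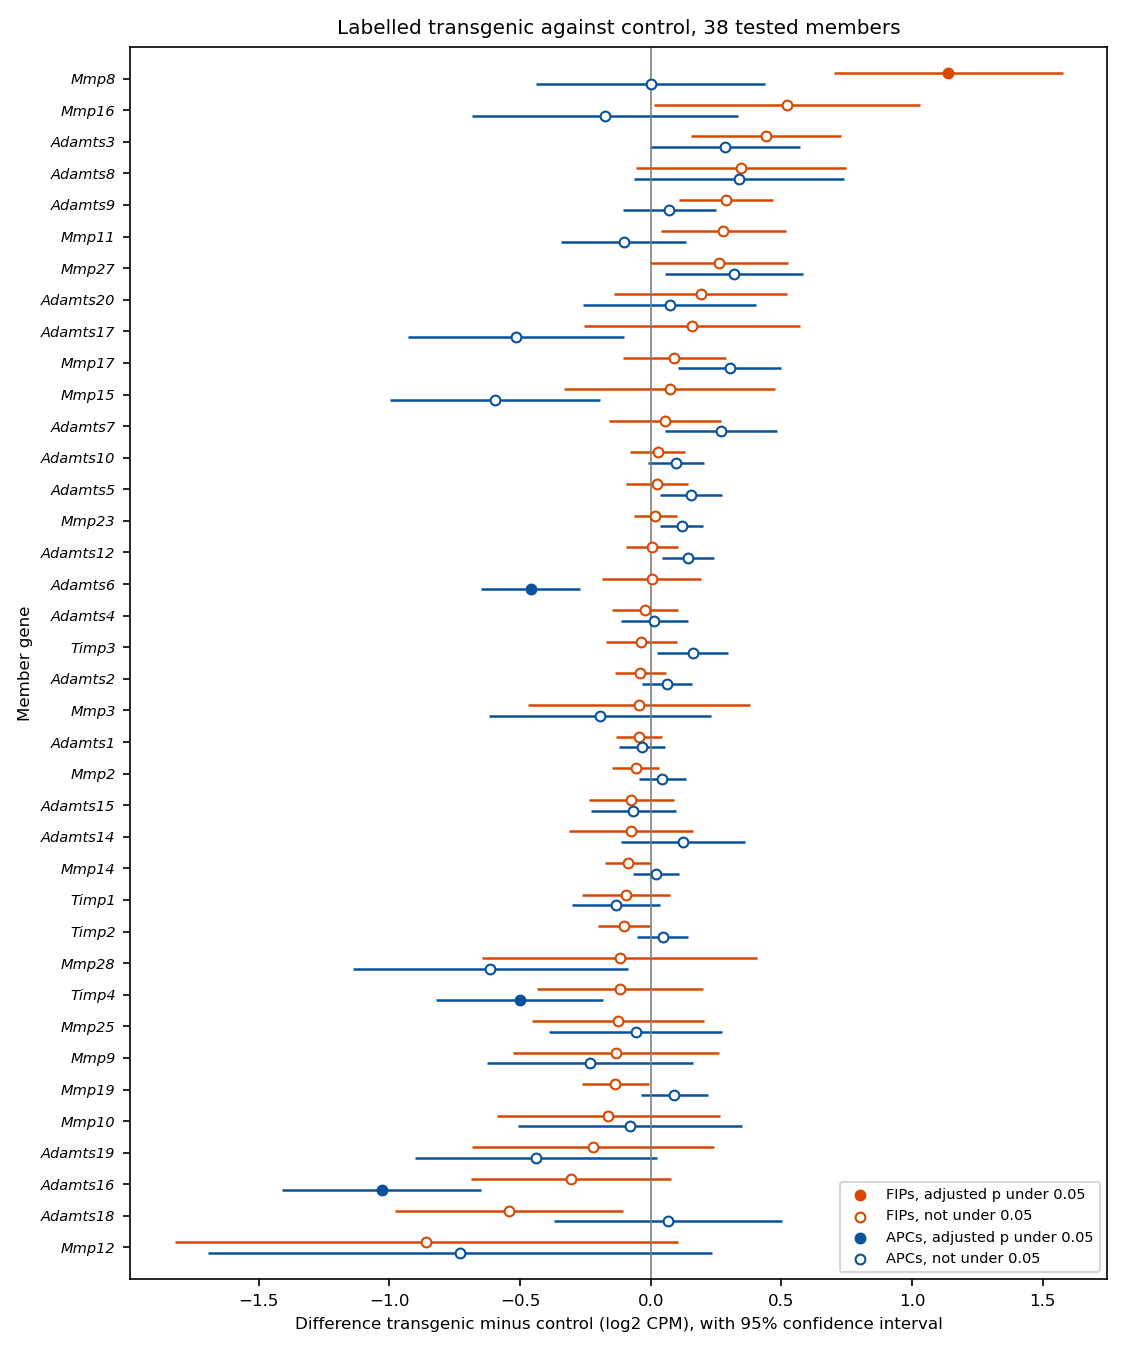
Difference between mice labelled transgenic and controls for the 38 tested members, on the horizontal axis in log2 CPM with the 95% confidence interval; orange is FIPs and blue is APCs, with filled points where the limma adjusted p was under 0.05. Mmp8 is filled in FIPs and Adamts16, Adamts6 and Timp4 in APCs, and most other intervals include or come near 0.

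The fourth comparison was the same in APCs. Here 3 members passed, all lower in APCs labelled transgenic: Adamts16, Adamts6 and Timp4 (7.89% of members). This share is near the background of 8.01% (2.1% higher and 5.91% lower). Unadjusted, 13 members had p under 0.05, again with no share over all genes computed, so this count is no result about the members. Adamts16 read 1.14, 0.50, 1.40, 0.84 and 0.45 log2 CPM in APCs labelled transgenic against 1.24, 2.17, 2.21, 1.89 and 1.97 in controls. Replicate 1 of the controls overlapped the other group and the remaining 4 controls did not. The difference was −1.03 (SE 0.18; 2.04-fold lower; limma adjusted p = 0.00648; exact permutation p = 0.0159). Adamts6 (3.14, 2.90, 3.18, 3.16 and 3.13 against 3.47 to 3.66) did not overlap and was lower (−0.46, SE 0.09; adjusted p = 0.0123; exact permutation p = 0.00794). Both genes are among the 3 largest FIP-higher members, so in APCs labelled transgenic they stood further from the FIP level than in control APCs.

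Timp4 (chr6:115241892-115252205, minus strand) read 5.08, 4.51, 4.36, 4.43 and 4.06 in APCs labelled transgenic against 4.78, 4.91, 4.98, 5.02 and 5.26 in controls. Replicate 1 of the APCs labelled transgenic lay within the control range and the other 4 below it. The difference was −0.50 (SE 0.15; 1.42-fold lower; limma adjusted p = 0.0476; exact permutation p = 0.0397). This call was lost in 14 of 20 fits with 1 library left out and with the replicate number as a block (adjusted p = 0.0637). All 3 calls were lost when only the APC libraries were fitted (0 members; adjusted p = 0.123 for Adamts16), and those of Adamts6 and Timp4 also with quantile normalization. The Timp4 call was further lost with log2(CPM + 1), with log2(CPM + 0.1) and with no filter. The groups did not overlap for 2 members, Adamts6 downward and Mmp17 upward (2.92% of all tested genes), the latter at 4.28 to 4.51 against 3.91 to 4.26 (0.30, adjusted p = 0.0537).

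**Figure D5:**
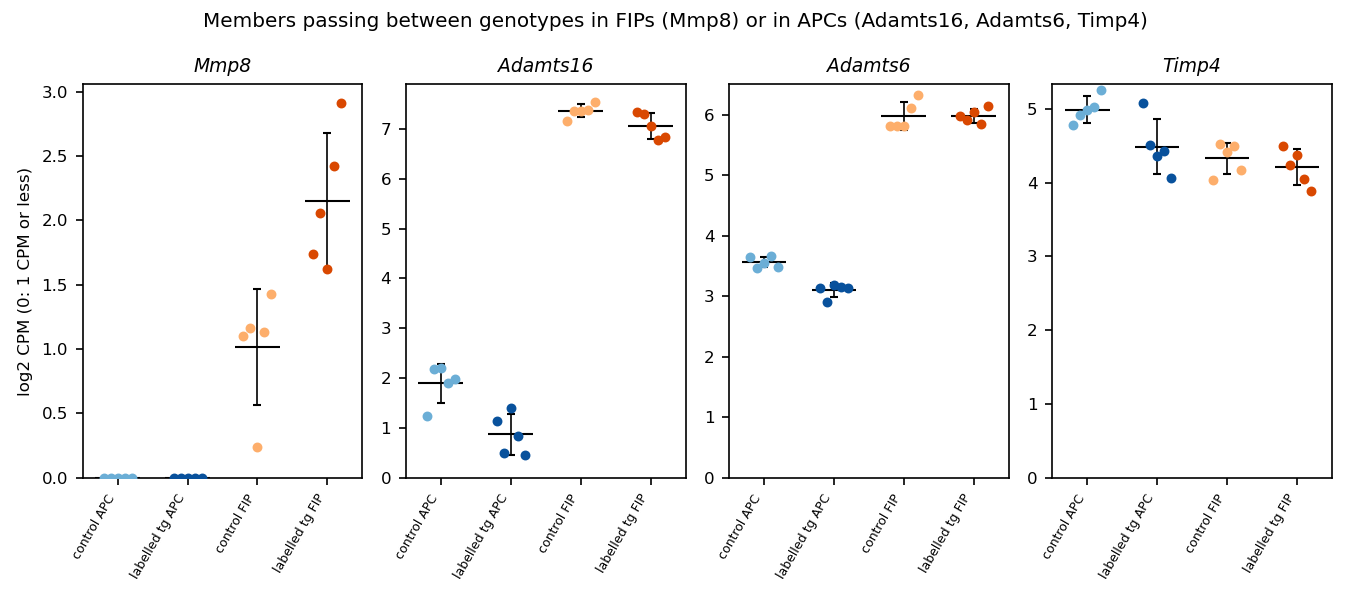
Log2 CPM of the 4 members that passed between genotypes, Mmp8 in FIPs and Adamts16, Adamts6 and Timp4 in APCs; points are libraries, bars give the mean ± SD of 5 libraries, and 0 means 1 CPM or less. Mmp8 is at 0 in all APC libraries, Adamts16 and Adamts6 are lower in APCs labelled transgenic while their FIP groups overlap, and for Timp4 1 APC library labelled transgenic lies at 5.08 within the control range.

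The count in APCs depended on the 2 libraries that stood apart. Without replicate 1 of the control APCs 8 members passed, and without replicate 1 of the APCs labelled transgenic 8 passed, against 4 without replicate 2 of the control APCs. The share over all genes was not computed for these fits. With both left out 9 passed (background 20.3%), the former 3 and 6 more: Mmp15 (−0.81, limma adjusted p = 0.00713) and Mmp28 (−0.86, adjusted p = 0.0263) were lower, and Adamts5 (0.21, adjusted p = 0.00977), Adamts12 (0.15, adjusted p = 0.0354), Timp3 (0.22, adjusted p = 0.0209) and Mmp23 (0.16, adjusted p = 0.00874) were higher in APCs labelled transgenic. Again the share of members, 9 of 38, was close to that of all genes. Both libraries were picked for being closer to the other genotype, so leaving them out tends to widen the differences. The 6 further calls are therefore no added evidence.

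Other markers moved with the APC comparison. Interstitial progenitor markers summed to 262 to 303 CPM in APCs labelled transgenic and 326 to 353 in controls, with 4 of 6 lower. This list is high in FIPs, as Adamts16 and Adamts6 are. Macrophage markers (195 to 315 against 306 to 504 CPM, 9 of 12 lower), erythroid markers (454 to 1040 against 802 to 1540, 5 of 5 lower), adipocyte markers (985 to 1420 against 1220 to 1690, 2 of 7 lower) and mesothelial markers (176 to 238 against 235 to 263, 3 of 8 lower) moved the same way. Mural markers stood at 790 to 923 against 842 to 1170 CPM, with 1 of 10 lower, and endothelial markers at 517 to 704 against 614 to 798 CPM, also with 1 of 10 lower. Over all tested genes 5.91% were lower in this comparison. Their part in the fall of Adamts16, Adamts6 and Timp4 was not tested. In FIPs 0 markers of these lists passed between genotypes.

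The interaction tested whether the genotype difference in FIPs was unlike that in APCs. It gave 0 of 38 members and 0 of 17435 genes (background 0%) in limma, the tool used, while 9 members had an unadjusted p under 0.05. No share over all genes was computed at that unadjusted threshold. The largest were Mmp8 (1.14, 95% confidence interval 0.52 to 1.76, adjusted p = 0.14) and Adamts16 (0.73, interval 0.19 to 1.27, adjusted p = 0.257). With both APC libraries numbered 1 left out, 3 members passed (background 5.49%): Adamts16 (0.96, adjusted p = 0.0217), Adamts9 (0.35, adjusted p = 0.0435) and Mmp8 (1.14, adjusted p = 0.0483). That choice of libraries tends to widen the genotype differences in APCs, so these calls are no added evidence. Mmp8 was listed at 0 in all APC libraries, so its interaction equals its difference in FIPs. It cannot show that the genotype difference depends on the population.

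Genes that work beside these proteases were described from 8 lists with 52 genes, of which 48 were tested. In controls 20 were higher and 10 lower in FIPs, and in mice labelled transgenic 20 and 12, against the same backgrounds of 47.5% and 41.7% as above. The ADAMTS-like proteins, which share the ancillary domains of ADAMTS enzymes but have no protease domain, stood on the FIP side: 6 of 7 were higher and 0 lower in controls. Papln, papilin, was higher by 2.70 (SE 0.12; limma adjusted p = 1.06e-13), Thsd4, which binds fibrillin, by 1.59 (adjusted p = 9.72e-06) and Adamtsl4, another microfibril protein, by 1.52 (adjusted p = 1.48e-12). In mice labelled transgenic their differences were 2.90, 2.37 and 1.25, and 6 of 7 were higher and 1 lower. Between genotypes, 1 of the 48 genes of all lists was higher in FIPs labelled transgenic (background 0.373%): Adamtsl2, a geleophysic dysplasia gene (0.61, adjusted p = 0.04). In APCs 3 were higher and 2 lower with the label (background 8.01%): Reck, Adam17 (0.14, adjusted p = 0.0319) and Tll2 (0.72, adjusted p = 0.0446) were higher, and Thsd4 (−0.85, adjusted p = 0.0339) and Ctss lower.

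Of the 9 ADAM proteases, the membrane-bound shedding enzymes, 4 were higher and 2 lower in control FIPs, and 5 and 1 in the other genotype. The sheddases Adam10 and Adam17 were higher by 0.53 and 0.43 in controls and 0.57 and 0.30 in mice labelled transgenic, and Adam23, which lacks protease activity, differed by −0.88 and −1.04. Of the 4 proprotein convertases, which remove the propeptides of many of these enzymes, Pcsk6 (1.32 and 1.13) and Pcsk5 (0.70 and 0.71) were higher in FIPs in both genotypes. Pcsk7 was lower in both (−0.14 and −0.18), and Furin differed by −0.08 (adjusted p = 0.0604) in controls and was lower in mice labelled transgenic (−0.12, limma adjusted p = 0.00781). In the plasminogen system, 2 of 7 were higher and 3 lower in controls: the inhibitor Serpinb2 was higher by 1.67 and the activator Plau differed by −0.24 (1.27 and −0.35 in mice labelled transgenic). Of the 5 procollagen carboxy-peptidases and their enhancers, Pcolce2, an enhancer, was higher by 1.03 and 1.07 and the peptidase Tll2 differed by −2.02 and −2.53.

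Among 5 tested surface and secreted regulators, the serine protease Fap, a fibroblast activation marker, differed by −0.65 in controls and −0.80 in mice labelled transgenic, while Cd44, which can dock Mmp9 at the surface, was higher by 0.43 and 0.35. Reck, a membrane-anchored inhibitor of metalloproteinases, was higher in APCs labelled transgenic than in control APCs (0.26, limma adjusted p = 0.013). Of 9 cathepsins and cystatins, 0 were higher and 1 lower in control FIPs, and in APCs the macrophage-rich cathepsin Ctss was lower with the label (−0.85, adjusted p = 0.0434), alongside the macrophage markers given above. Versican (Vcan), a substrate of Adamts1, Adamts4, Adamts5, Adamts9 and Adamts15 in stroma, was higher in FIPs by 0.46 in controls (adjusted p = 7.11e-08) and 0.27 in mice labelled transgenic (adjusted p = 5.84e-05). The other tested gene of the 4 lecticans, neurocan (Ncan), was lower in control FIPs (−1.45, adjusted p = 0.000933) and gave −0.77 (adjusted p = 0.0588) in mice labelled transgenic. In the interaction 0 of the 48 passed.

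The remaining members lay near the floor. Mmp16 ranged from 0.60 to 2.07 and Mmp25 from 0 to 0.71 log2 CPM over all libraries, and neither passed in a comparison. Mmp7, matrilysin, read up to 0.93, Mmp13, the main rodent collagenase, up to 1.09 and Mmp24 up to 0.01, with Mmp7 and Mmp13 above 0 only in control libraries (2 FIP and 2 APC libraries for Mmp7, 2 and 1 for Mmp13).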

How the data were processed

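Polyadenylated RNA of sorted cells was sequenced in 20 libraries (4 groups of 5). Per the submitters' processing notes, Trim Galore 0.4.1, HISAT2 2.0.1, featureCounts 1.4.6 and DESeq2 1.6.3 were used with build GRCm38/mm10, and the authors deposited log2 CPM with 2 decimals, in which a gene at 1 CPM or less is listed as 0. Neither the gene annotation used for counting nor its strandedness is given in the sources used. Genes were placed by Ensembl identifier on GENCODE M21 (54276 of 54304 matched). Depth is estimated and sets what 1 CPM means in reads.

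The values are no counts, so limma 3.58.1 (R 4.3.3) was fitted to the deposited log2 values of all 17435 genes above 0 in at least 5 libraries, with 1 mean per group and a trended variance. 5 contrasts were tested, two-sided, at a Benjamini-Hochberg adjusted p of 0.05 over all genes. The script was tested on simulated data. Permutation tests over libraries were exact. The limma p-values rest on a spread between pools that is shared by all 4 groups and drawn towards a trend over genes. They treat the pools as independent, although FIP and APC pools of a genotype have mice in common.

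Within the set, members were taken by gene name alone. The choice of this set, of the marker lists and of the pathway lists was made with earlier results of these data known. Chosen members were given by library values, by range or by mean ± SD. They were those passing between genotypes and the 8 largest passing differences in each direction between populations in each genotype. Added to these were the TIMPs, gelatinases, collagenases, stromelysins, aggrecanases, procollagen peptidases and members with 1 outlying library. Some other members were given by range. Mmp1a is not annotated as protein-coding and is no member. Of each pathway list, up to 3 genes with the smallest p in a comparison were named.

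Alternatives were the pseudocount, the filter, scaling (median centring, trimmed mean of M-values, quantile), robust variance, the replicate number as a block or random effect, fits limited to the groups compared, and leaving out each library. Leaving out both APC libraries numbered 1 was chosen after seeing the data, for their likeness to the other genotype, which favours more calls between genotypes in APCs.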

Additional observations from a re-analysis of the deposited data

Results flagged for a closer look

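In 7 of 135 groups of 5 libraries, 1 library lay far from the other 4 by Dixon's criterion (gap over range above 0.71), and chance alone gives about 1 in 20. Among control FIPs, replicate 5 read 8.66 log2 CPM for Adamts15 (others 8.42 to 8.48), replicate 1 read 1.87 for Mmp16 (others 0.66 to 0.94) and replicate 3 read 0.24 for Mmp8 (others 1.10 to 1.43). Among control APCs, replicate 4 read 2.91 for Adamts3 (others 3.32 to 3.38). Among APCs labelled transgenic, replicate 2 read 2.90 for Adamts6 (others 3.13 to 3.18). In the same group replicate 5 read 9.29 for Mmp2 (others 9.08 to 9.12) and 9.59 for Timp2 (others 9.39 to 9.41). This was not particular to the pair. The same library was the highest of its group for Adamts1, Adamts2, Adamts4, Adamts5, Adamts10 and Adamts12, and the lowest for Adamts16. It also had the highest mesenchymal marker sum of the group (4000 CPM) and the lowest estimated depth (6.6 megareads).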

How the results depend on the processing

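Of the single-member results under the alternatives, 5885 kept their side of the threshold, 68 newly passed, 59 no longer passed and 0 passing ones changed sign. For results that passed neither in the main fit nor in the alternative, changes of sign were not counted. FIPs against APCs gave 22 to 28 members in controls and 21 to 25 in mice labelled transgenic, and 24 to 26 and 22 to 24 with 1 library left out. In APCs between genotypes, the 3 members became 7 with median centring (4 higher, 3 lower), 5 with the trimmed mean of M-values (2 higher, 3 lower), 0 with only the groups compared, 9 without both APC libraries numbered 1, and 2 to 8 with 1 library left out. In FIPs the 1 member became 0 with log2(CPM + 0.1), 0 with a mean of at least 1 log2 CPM (Mmp8 is then not tested), 2 without both APC libraries numbered 1, and 0 to 1 with 1 library left out. The interaction stayed at 0, except for 3 without both APC libraries numbered 1, and was not run with only the groups compared. The cause was not tested. Among the alternatives, the share over all genes was computed only for leaving out both APC libraries numbered 1, so the other counts have no background.

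Same-numbered FIP and APC libraries correlated at 0.036 to 0.269 in controls (3 of 5 best with their own number). In mice labelled transgenic they correlated at 0.059 to 0.333 (4 of 5). Between genotypes, 1 of 5 matched its own number best in FIPs and 1 of 5 in APCs. Same-numbered libraries of a genotype thus tended to deviate together. Which pools share mice is not stated, so the numbers were not taken as pairs. The main fit treated all pools as independent. With the replicate block the counts were 27, 24, 1, 2 and 0, and as a random effect 27, 24, 1, 3 and 0. Depth limits members near 1 CPM, where a listed 0 hides any lower level.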
